A study of Mus musculus with 16 samples.

Results

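The cytosolic ribosomal protein genes encode the proteins of the ribosome that works in the cytoplasm. They were taken from the deposited count table by symbol alone: Rpl or Rps followed by a number and, where present, the suffix a, x, l or l1, together with Rplp0, Rplp1, Rplp2 and Rpsa. Rows named as pseudogenes with -ps were left out. The rule found 86 of 55356 gene rows, with 53 genes of the large subunit and 33 of the small subunit. Of the 86, 10 had paralog symbols ending in l or l1. A filter on low counts kept 78 members for testing, 47 of the large and 31 of the small subunit, among 10634 genes tested in all.

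The libraries came from sections of the brachiocephalic artery, a large vessel leaving the aortic arch and a common site of plaque in mice with high plasma cholesterol. There were 4 groups of 4 mice, each library from a separate mouse: Apoe-/-Mif-/- mice after 42 weeks of diet, Apoe-/- mice after 42 weeks, Apoe-/-Mif-/- mice after 24 weeks and Apoe-/- mice after 24 weeks. All mice were female, all lacked Apoe, whose loss raises plasma cholesterol, and all received a Western-type diet, with 21.2% of it fat and 0.2% cholesterol, that began at 6 weeks of age, so the animals on the longer diet were also older. No group was free of plaque-promoting genotype or diet, and Mif, the gene for macrophage migration inhibitory factor, was absent from the whole animal rather than from a chosen cell type. Whole cross sections were lysed, so each library mixed plaque, vessel wall and whatever tissue adhered to it. In such bulk samples, fewer cells of a type and less RNA per cell cannot be told apart.

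A ribosome has a small subunit, which reads the mRNA, and a large subunit, which joins amino acids, and each holds a single copy of nearly every one of its proteins. Cells therefore make these proteins in matched amounts, and their mRNAs are short, abundant and present in almost every cell type. Most of them begin with a run of pyrimidines at the 5′ end, the terminal oligopyrimidine or TOP motif, through which the mTORC1 kinase and the RNA-binding protein Larp1 control their translation. A few members have paralogs with restricted expression, such as the muscle gene Rpl3l and the testis genes Rpl10l and Rpl39l.

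Start-site sequences are shown here because the TOP motif is a feature that the choice of members did not use. RefSeq promoter entries of build GRCm38.p6, an older build than that of the counts, matched 63 of the 86 members. Of these, 17 (27.0%) had only C or T in the first 5 bases at an annotated start, against 1426 of 27025 genes in the whole promoter table (5.28%) and 1 of 69 mitochondrial ribosomal protein genes (1.45%). The search ran on the strand of the gene. A run of at least 5 pyrimidines opening with C within 10 bases of the start was found in 31 members (49.2%), in 26 of the 69 mitochondrial ribosomal protein genes (37.7%) and in 26.0% of all genes. The stretches below hold 10 bases before the annotated start and 20 from the start onward, 5′ to 3′. Capitals mark the start base and, where the first 5 bases are all C or T, the unbroken pyrimidines from the start onward.
Rps18: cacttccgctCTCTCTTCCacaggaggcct
Rpl28: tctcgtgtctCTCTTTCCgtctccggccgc
Rps6: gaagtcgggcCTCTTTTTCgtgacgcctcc
Rplp2: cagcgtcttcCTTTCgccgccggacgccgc
Rpl15: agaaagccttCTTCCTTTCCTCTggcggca
Rps16: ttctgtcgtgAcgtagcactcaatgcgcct
Rpl7l1: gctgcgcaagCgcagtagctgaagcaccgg
Rpl22l1: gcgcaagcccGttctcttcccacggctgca
They lie at chr17:33955646-33955675 on the minus strand for Rps18, chr7:4792955-4792984 on the plus strand for Rpl28, chr4:86857348-86857377 on the minus strand for Rps6 and chr7:141447641-141447670 on the plus strand for Rplp2. The Rpl15 stretch is chr14:18270967-18270996 on the minus strand and the Rps16 stretch is chr7:28350679-28350708 on the plus strand. Rpl7l1 is at chr17:46782637-46782666 on the minus strand and Rpl22l1 at chr3:28805498-28805527 on the plus strand. Counted from the annotated start base, Rps18, Rpl28, Rps6, Rplp2 and Rpl15 had unbroken runs of 9, 8, 9, 5 and 13 pyrimidines. The base before each of these starts was also C or T, so each start lay inside a longer run. The start bases of Rps16 and of the paralogs Rpl7l1 and Rpl22l1 opened none, though pyrimidines follow the G at the Rpl22l1 start. Of 7 matched paralogs, 1 had only C or T in the first 5 bases and 5 had a run within 10 bases. For the 56 other matched members these numbers were 16 and 26. The stretches shown are examples and do not give the share among the members. The motif describes annotated sequence, and translation was not measured.

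Total counts ran from 378066 to 8649518 per library, detected genes from 10183 to 17227, and the share of mitochondrially encoded transcripts from 0.751% to 10.2%. Mif averaged 9.35 ± 5.06 CPM in Apoe-/-Mif-/- libraries and 160 ± 116 CPM in Apoe-/- libraries at 42 weeks (SD, n = 4 each), and 12.8 ± 6.69 CPM against 141 ± 33.5 CPM at 24 weeks. Even this deleted gene did not pass in edgeR. Its log2 fold change was -4.11 at 42 weeks (edgeR adjusted p = 0.176) and -3.46 at 24 weeks (edgeR adjusted p = 0.341). A member that was not called below is therefore not shown to be unchanged. CPM is a count scaled by the library's total over the genes kept by the filter and by edgeR's TMM factor. Fits scaled by library total alone also used the total over the genes kept. The plate positions in the labels placed all 4 libraries of Apoe-/-Mif-/- mice at 24 weeks in a row of their own, so plate row and group cannot be told apart for them. Library 4 of that group stood apart among the members, with values for Rps20, Rps21, Rps4x, Rpl10a, Rpl7a and Rpl7l1 far above those of its group. A value without it is also given where leaving it out moves a named group mean by over 1.5 times. The same holds for the members' median and for log2 fold changes among the 5 smallest p of a comparison. Other log2 fold changes of that group and the figures include it. Libraries 1 and 4 of Apoe-/- mice at 24 weeks stood apart in cell type markers, with summed skeletal muscle markers of 5015 and 2389 CPM against 10.3 and 28.3 CPM in libraries 2 and 3 of the same group. Their brown adipocyte markers summed to 10010 and 2491 CPM against 34.6 and 77.4 CPM in the other two, and their white adipocyte markers to 16680 and 4914 CPM against 82.2 and 1841 CPM. Smart-seq2 libraries carry no molecular identifiers, so the intervals below cover counting error only.

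The members took 2.58% to 5.46% of all gene counts in a library, and the mean of this joint share was lowest in Apoe-/- mice at 24 weeks. Libraries 1 to 4 of Apoe-/-Mif-/- mice at 42 weeks gave 4.30%, 4.94%, 3.50% and 2.82%. Those of Apoe-/- mice at 42 weeks gave 3.56%, 3.82%, 4.06% and 4.46%. The 42-week groups covered each other, and the Apoe-/-Mif-/- group had both the highest and the lowest share of the pair. Apoe-/-Mif-/- mice at 24 weeks had 3.63%, 3.97%, 4.71% and 5.46%, against 2.58%, 3.09%, 2.78% and 2.86% in Apoe-/- mice at 24 weeks. Every Apoe-/-Mif-/- library at 24 weeks lay above every Apoe-/- library of the same duration. Counting error was small beside these gaps: the widest 95% Clopper-Pearson interval, in the shallowest library, ran from 3.50% to 3.62%.

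**Figure D1:**
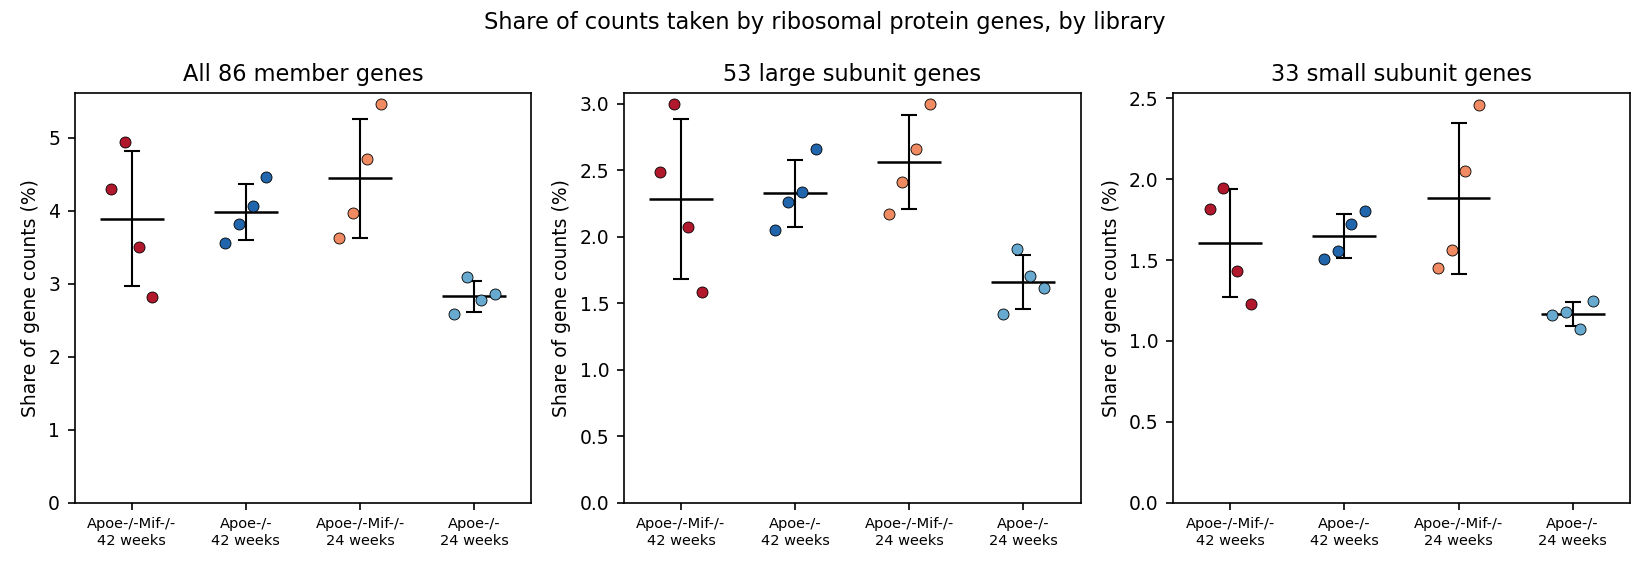
Share of each library's gene counts taken by all 86 members, the 53 large subunit genes and the 33 small subunit genes, in percent. Points are libraries, horizontal lines group means and bars 1 SD (n = 4). The 4 Apoe-/- libraries at 24 weeks (2.58% to 3.09% for all members) sit below the 4 Apoe-/-Mif-/- libraries at 24 weeks and below the 4 Apoe-/- libraries at 42 weeks.

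At 24 weeks the mean joint share was 4.44% ± 0.816 in Apoe-/-Mif-/- mice and 2.83% ± 0.212 in Apoe-/- mice (SD, n = 4 each), a ratio of 1.57 and a difference of 1.61 percentage points with a standard error of 0.421. Without library 4 of the Apoe-/-Mif-/- group the difference was 1.27 points, and without libraries 1 and 4 of the Apoe-/- group, a choice made after seeing the data, it was 1.51 points. In Apoe-/- mice the mean was 3.98% ± 0.382 at 42 weeks and 2.83% ± 0.212 at 24 weeks, a ratio of 1.41 and a difference of 1.15 points with a standard error of 0.218, again without overlap. It was 1.04 points without libraries 1 and 4 of the 24-week group. These comparisons share the Apoe-/- libraries at 24 weeks, so they are not independent of each other. At 42 weeks the means were 3.89% ± 0.927 in Apoe-/-Mif-/- mice and 3.98% ± 0.382 in Apoe-/- mice, and the difference of -0.0858 points was smaller than its standard error of 0.501. In Apoe-/-Mif-/- mice the mean was 3.89% ± 0.927 at 42 weeks and 4.44% ± 0.816 at 24 weeks, and the difference of -0.551 points had a standard error of 0.618. The joint share is a sum over chosen genes and was given no p-value.

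The share depends on what else fills a library. When the members were instead summed as TMM-scaled CPM, a scaling chosen after seeing the data, the 24-week groups overlapped: the Apoe-/-Mif-/- libraries held 2.61%, 3.52%, 4.19% and 6.59%, and the Apoe-/- libraries held 2.82%, 2.60%, 2.62% and 2.39%. On that scale 3 of the 4 Apoe-/-Mif-/- libraries lay above all Apoe-/- libraries. Apoe-/- libraries held 2.84% to 5.87% at 42 weeks and 2.39% to 2.82% at 24 weeks on the same scale, which did not overlap but nearly met. Detected genes numbered 12400 to 14257 in Apoe-/-Mif-/- and 12859 to 17227 in Apoe-/- libraries at 24 weeks, and 10183 to 14003 in Apoe-/- libraries at 42 weeks. The part of library depth and complexity in the joint share was not tested.

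Large and small subunit genes showed the same order of groups. At 24 weeks the large subunit genes took 2.56% ± 0.354 in Apoe-/-Mif-/- mice and 1.66% ± 0.204 in Apoe-/- mice, and the small subunit genes took 1.88% ± 0.465 and 1.17% ± 0.0714 in the same groups. Neither subunit overlapped between genotypes at 24 weeks, nor between 42 and 24 weeks in Apoe-/- mice, in which the means at 42 weeks were 2.33% ± 0.251 and 1.65% ± 0.138. The ratio of large to small subunit counts had means of 1.41 ± 0.108 in Apoe-/-Mif-/- and 1.41 ± 0.0612 in Apoe-/- mice at 42 weeks, and 1.39 ± 0.155 in Apoe-/-Mif-/- and 1.43 ± 0.200 in Apoe-/- mice at 24 weeks. Over all 16 libraries it ran from 1.22 to 1.62, and the groups overlapped in each of the 4 comparisons.

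Levels differed widely among the members. Per kilobase of transcript, with lengths from GENCODE M21, the highest levels were those of Rplp1 at 3031 CPM per kb, Rpl41 at 2552 and Rpl13 at 2383. Rplp1 encodes an acidic protein of the stalk that recruits elongation factors, Rpl41 the smallest ribosomal protein, and Rpl13 a core protein of the large subunit. The lowest tested members on this scale were Rpl22l1 at 27.9, Rpl13a at 46.4 and Rpl39 at 58.8 CPM per kb. The 10 most abundant members held 35.6% of the summed member CPM. All 78 tested members were detected in all 16 libraries, whereas 55.1% of all tested genes were.

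The members that were not tested were Rps12l1 with no counts at all, Rpl24 with 13 counts over the 16 libraries, Rpl32l with 20, Rps10 with 33, Rpl39l with 47, Rpl3l with 51, Rpl6l with 90 and Rpl10l with 110. Rpl24 and Rps10 encode standard ribosomal proteins, and their near absence from the count table, like the low total of 1046 counts for Rpl13a, need not reflect their mRNA. Ribosomal protein genes have many near-identical processed pseudogenes, and reads that match several places can be dropped or split by a counting program. The 322 rows with -ps names held 15032 counts, at most 0.0713% of a library, against 1898676 counts for the members. This total leaves out any copies listed under other names. How the authors' counting treated reads that match several places is not given in the sources used here. The level of any single member is uncertain where copies exist.

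Tested members varied less between libraries than most genes. The SD of log2(CPM + 1) over the 16 libraries had a median of 0.71 among members and 1.83 among all tested genes, whose median level was 29.4 CPM against 394 CPM for the members. The steadiest members were Rpl7a at 0.44, Rpl5 at 0.45 and Rpl35a at 0.47, where Rpl5 encodes the protein that carries a small ribosomal RNA into the large subunit and, when free, restrains Mdm2. The most variable were all paralogs, Rpl7l1 at 1.86, Rps4l at 1.59 and Rpl22l1 at 1.36. Scaling each library to its summed member CPM brought the median SD down to 0.47 and lowered the SD of 65 of the 78 members. Each member is part of the sum it was scaled to, and this scaling also cancels the library's TMM factor. How far the fall reflects members that move together was not tested. The levels of the tested members, each centred on its own mean, are drawn as a heat map by library.

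**Figure D2:**
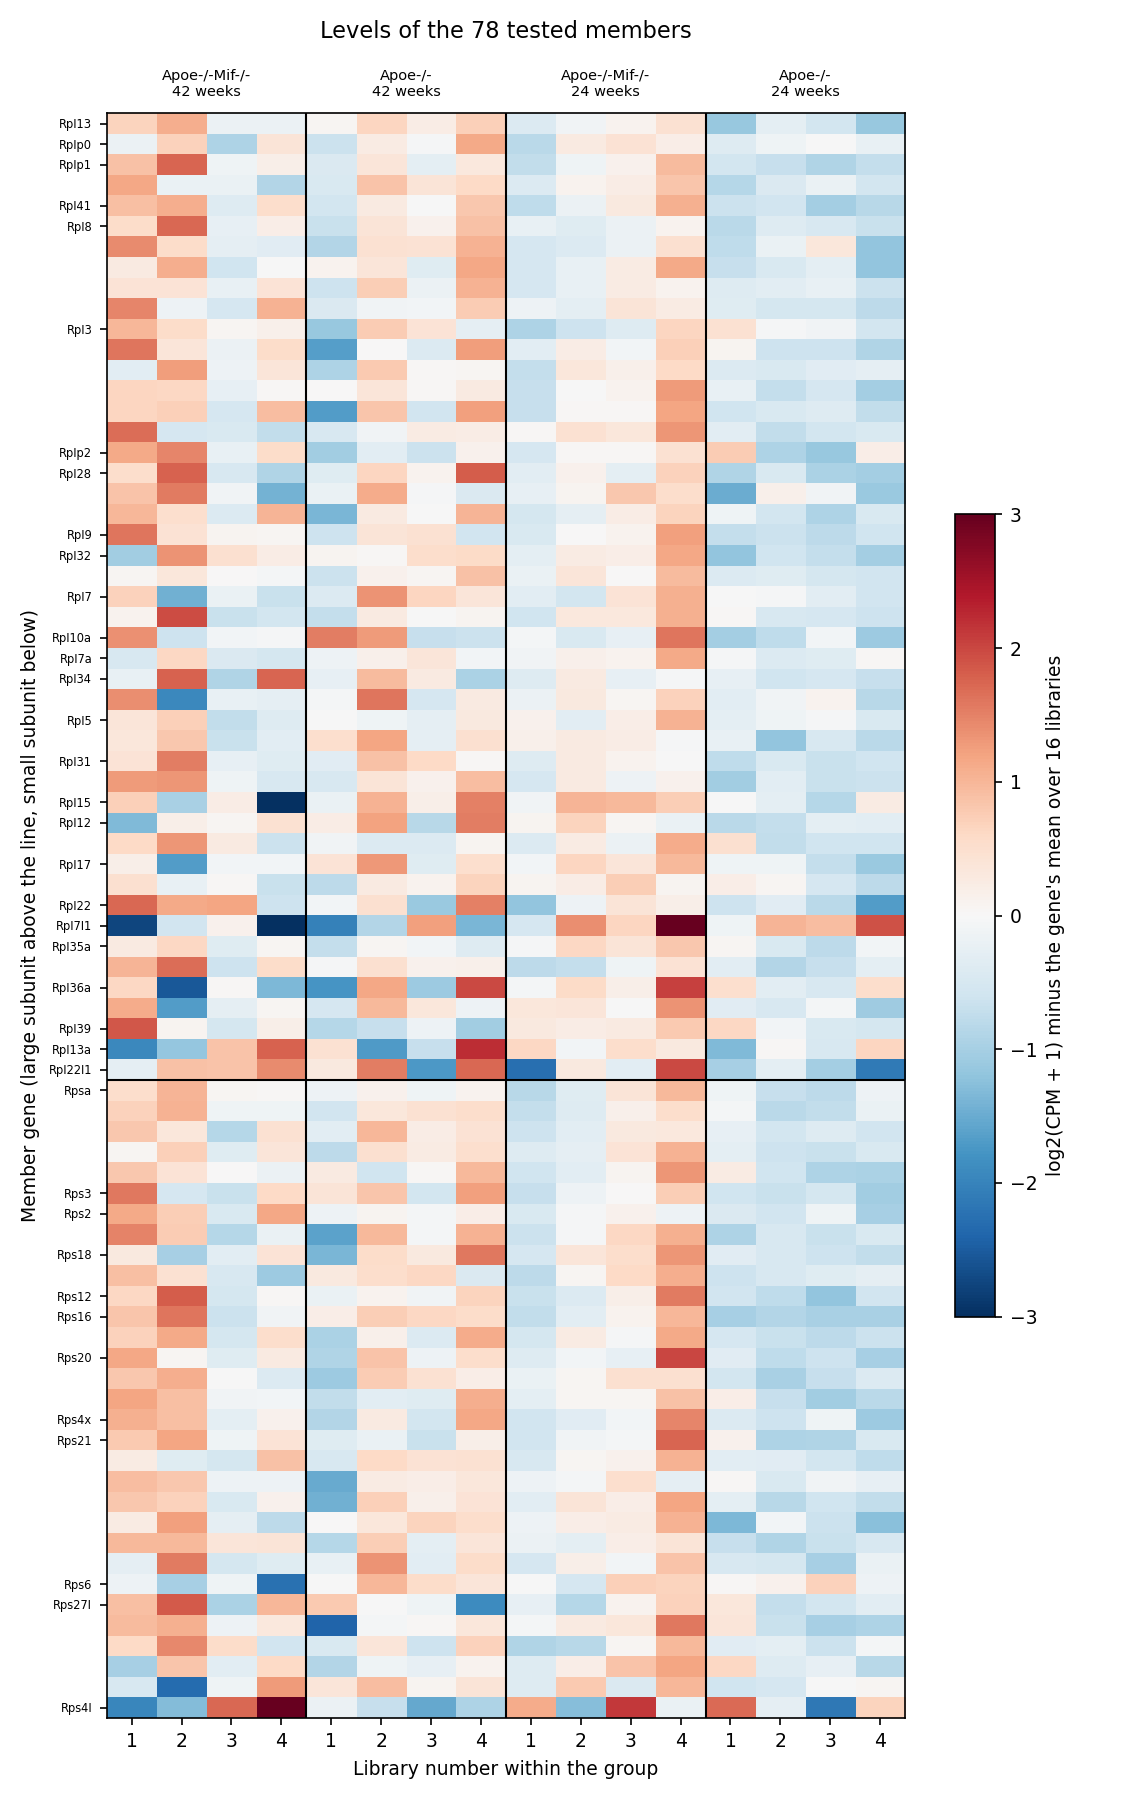
Levels of the 78 tested members as log2(CPM + 1) minus each gene's mean over the 16 libraries. Columns are libraries in their groups, rows are members (some labelled) ordered by mean CPM within the large subunit (above the line) and the small subunit (below it). Most rows are blue across the 4 Apoe-/- libraries at 24 weeks and red in the fourth Apoe-/-Mif-/- library at 24 weeks, and the rows of Rpl7l1, Rps4l, Rpl22l1 and Rpl36a are among the most uneven.

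Mif deletion at 24 weeks went with higher fitted levels of nearly every member, none of which passed the test. Of the 78 members, 77 had a log2 fold change above 0 and only Rpl3 was below, at -0.18. The median over the members was 0.76 on the log2 scale, beside -0.18 over all tested genes, of which 45.1% were above 0. edgeR's quasi-likelihood test called 0 members at an adjusted p under 0.05, where 0.047% of all tested genes were called. It found 0 members at an unadjusted p under 0.05 in either direction, against 1.77% of all genes higher and 5.57% lower. DESeq2, limma voom and limma on the deposited variance-stabilised values also called 0 members. Over all genes DESeq2 called 210 of 10634 and both limma fits called 0.

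Rps20, a protein of the small subunit head, had 278, 343, 302 and 1452 CPM in Apoe-/-Mif-/- libraries and 285, 212, 234 and 180 CPM in Apoe-/- libraries at 24 weeks. Only library 4 of the Apoe-/-Mif-/- group was far above the rest, and the groups overlapped by a single pair of libraries. Its log2 fold change of 1.38 ± 0.75 (SE) had an adjusted p of 0.754 in edgeR, and without that library it was 0.39. Rpl32, a protein on the outer face of the large subunit, had 303, 444, 432 and 834 CPM in Apoe-/-Mif-/- libraries against 165, 247, 228 and 183 CPM in Apoe-/- libraries. All 4 Apoe-/-Mif-/- values of Rpl32 were above all Apoe-/- values, with a log2 fold change of 1.29 ± 0.72 (edgeR adjusted p = 0.763), which was 0.91 without library 4. The other members with the smallest p were Rpl41, Rps12 and Rps18, with log2 fold changes of 1.03, 1.21 and 1.11 and edgeR adjusted p of 0.769, 0.794 and 0.809. Without library 4 their log2 fold changes were 0.58, 0.46 and 0.71.

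Levels in CPM did not overlap between genotypes at 24 weeks for 15 members (19.2%), all higher in Apoe-/-Mif-/- mice, where 1.55% of all tested genes were separated in that direction. Among them were Rpl8, Rpl9, Rpl12, Rpl23, Rpl26, Rpl28, Rpl31, Rpl32 and Rpl37 of the large subunit and Rps16 and Rps26 of the small subunit. No member was separated in the other direction, where 2.29% of all genes were. Without library 4 of the Apoe-/-Mif-/- group, which had the highest value of many members, the median log2 fold change was 0.41 and 71 members were above 0 of the 79 that then passed the filter. Without libraries 1 and 4 of the Apoe-/- group the median was 0.80, with 76 of 79 above 0. The median was 0.71 for large subunit members and 0.77 for small subunit members, of which 46 of 47 and 31 of 31 were above 0. Without library 4 of the Apoe-/-Mif-/- group these medians were 0.46 and 0.39.

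**Figure D3:**
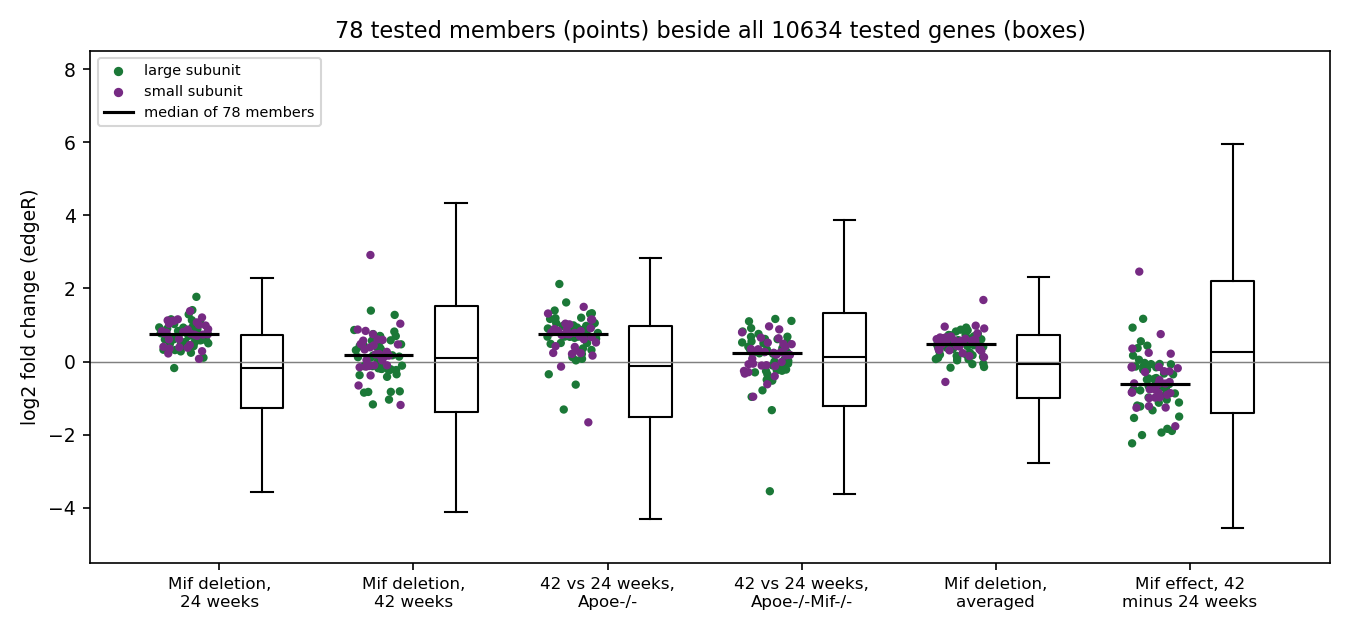
edgeR log2 fold changes of the 78 tested members (points, green for large and purple for small subunit) in the 6 comparisons, with the member median as a bar. Boxes show all 10634 tested genes with quartiles, median and whiskers at the 5th and 95th percentiles. The members gather above 0 for Mif deletion at 24 weeks (median 0.76) and for 42 against 24 weeks in Apoe-/- mice (median 0.75), and near 0 for Mif deletion at 42 weeks (0.17).

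Abundant and short genes offer a background for these medians, in classes set after the values were seen. The 337 other genes with a mean CPM at or above the members' median had a median log2 fold change of 0.27 for Mif deletion at 24 weeks and 0.38 for 42 against 24 weeks in Apoe-/- mice. The 1879 other genes with transcripts of at most 1000 nt had medians of -0.05 and -0.08 in these comparisons, and the 8136 with longer transcripts had -0.23 and -0.17. The members' own medians were 0.76 and 0.75, and their median transcript length was 712 nt. No test was made of the gap between these classes and the members.

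Markers of other cell types also moved between the 24-week groups. The summed level of all 5 cardiac muscle markers was 1041 to 3547 CPM in Apoe-/-Mif-/- and 103 to 374 CPM in Apoe-/- libraries, without overlap and with none of the markers at 0. White adipocyte markers (7 of 7 in the table) summed to 96.9 to 910 CPM in Apoe-/-Mif-/- libraries, where Lep was at 0, and to 82.2 to 16680 CPM in Apoe-/- libraries. All 6 skeletal muscle markers summed to 9.84 to 60.9 CPM in Apoe-/-Mif-/- and 10.3 to 5015 CPM in Apoe-/- libraries, and all 7 macrophage markers to 5331 to 14180 CPM and 1706 to 12790 CPM in the same groups. The high ends of the adipocyte and skeletal muscle ranges in Apoe-/- mice were libraries 1 and 4, in which macrophage markers were lowest, at 1706 and 2328 CPM. The joint shares of these libraries were 2.58% and 2.86%, and those of libraries 2 and 3 were 3.09% and 2.78%. The part of tissue composition in the levels of the members was not tested.

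A longer diet in Apoe-/- mice went with a like number of members above 0. At 42 against 24 weeks, 73 of 78 members had a log2 fold change above 0 and 5 were below, Rpl7l1, Rps4l, Rpl39, Rplp2 and Rps25. The median was 0.75 for the members and -0.12 for all tested genes, of which 47.3% were above 0. edgeR called 0 members at an adjusted p under 0.05, as it called 0.0% of all genes. DESeq2 and both limma fits also called 0 members, where DESeq2 called 391 of 10634 genes and the limma fits 0. At an unadjusted p under 0.05, edgeR had 4 of 78 members higher, Rpl13, Rpl28, Rps16 and Rps3, and none lower. Of all genes 3.87% were higher and 8.36% lower at that threshold. The share of members that were higher was near that of all genes, which is no result about the members. Large subunit members had a median of 0.75, with 44 of 47 above 0, and small subunit members 0.75 as well, with 29 of 31. Without libraries 1 and 4 of the 24-week group the median of the members was 0.73, with 77 of 79 above 0.

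Rpl13 had 1787, 2661, 1984 and 2780 CPM at 42 weeks and 777, 1389, 1159 and 777 CPM at 24 weeks in Apoe-/- mice. The groups did not overlap, and the log2 fold change was 1.17 ± 0.52 (SE), with an edgeR p of 0.0309 and an adjusted p of 0.358. Rps16, whose tail reaches the peptidyl-tRNA in the small subunit, had 483, 701, 648 and 617 CPM at 42 weeks against a narrow 211, 228, 214 and 215 CPM at 24 weeks. All Rps16 values at 42 weeks were above all at 24 weeks, and its log2 fold change of 1.50 ± 0.70 had an edgeR adjusted p of 0.38. Rpl28, a large subunit protein whose start lies in the pyrimidine run shown above, had 304, 614, 416 and 1372 CPM at 42 weeks and 208, 281, 201 and 191 CPM at 24 weeks. Its groups also did not overlap, with library 4 at 42 weeks highest, and its log2 fold change was 1.62 ± 0.74 (edgeR adjusted p = 0.373), or 1.03 without that library. Rps3, which lines the mRNA entry channel, had a log2 fold change of 1.32 ± 0.63 (edgeR adjusted p = 0.386), and Rpl10a one of 1.40 (edgeR adjusted p = 0.5).

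**Figure D4:**
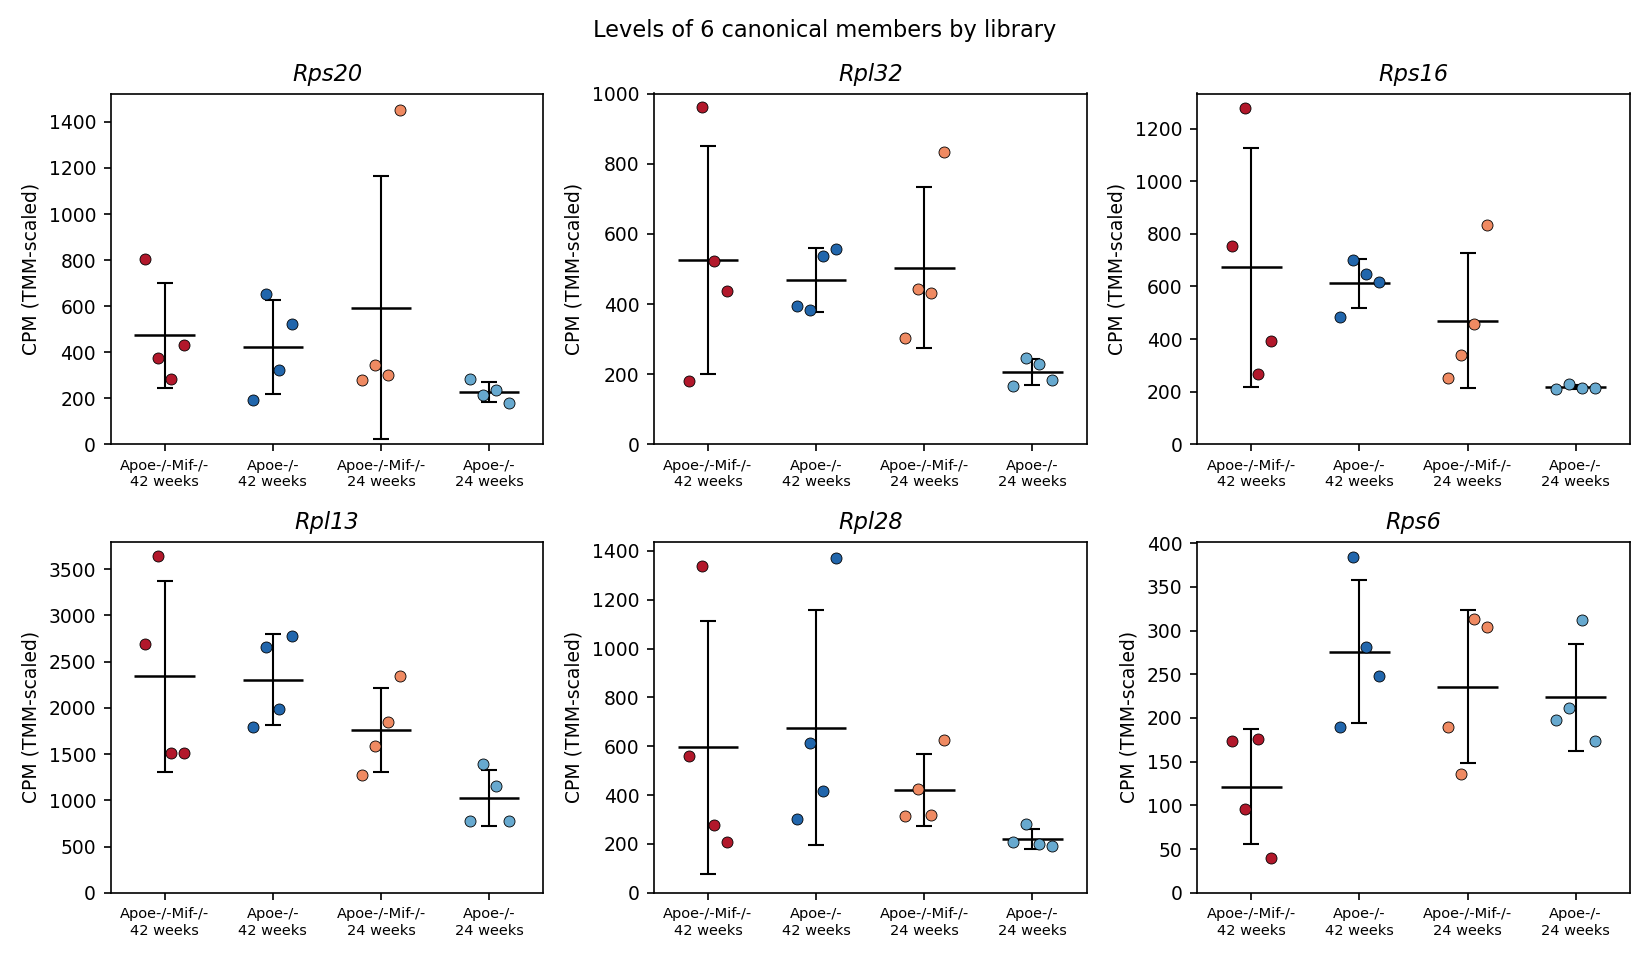
TMM-scaled CPM of 6 members by library. Points are libraries, lines group means and bars 1 SD (n = 4), and each panel has its own axis from 0. Rpl32, Rps16, Rpl13 and Rpl28 have their lowest means in Apoe-/- mice at 24 weeks, 1 library of 1452 CPM carries the Rps20 mean of Apoe-/-Mif-/- mice at 24 weeks, and Rps6 has its lowest mean in Apoe-/-Mif-/- mice at 42 weeks.

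Levels did not overlap between 42 and 24 weeks in Apoe-/- mice for 12 members (15.4%), all higher at 42 weeks, where 1.06% of all tested genes were separated in that direction. Among them were Rpl13, Rpl28, Rpl30, Rpl31, Rpl32, Rpl41, Rplp1, Rps12 and Rps16. No member was lower without overlap, where 3.09% of all genes were. Macrophage markers, 7 of 7 in the table and none at 0, summed to 8515 to 25710 CPM at 42 weeks and 1706 to 12790 CPM at 24 weeks, and skeletal muscle markers to 11.5 to 59.3 CPM and 10.3 to 5015 CPM. Brown adipocyte markers summed to 71.7 to 135 CPM at 42 weeks and 34.6 to 10010 CPM at 24 weeks. T cell and thymocyte markers summed to 7.39 to 188 CPM and 2.53 to 3291 CPM, and erythroid markers to 546 to 20090 CPM and 136 to 1269 CPM. The 3291 CPM came from library 4 at 24 weeks, with libraries 1 to 3 at 100, 2.53 and 34.0 CPM. The 20090 CPM came from library 2 at 42 weeks. The part of these shifts in the levels of the members was not tested. This comparison and the genotype comparison at 24 weeks share the same 4 Apoe-/- libraries, so their members' values are given side by side only. Rpl28 had a log2 fold change of 1.62 for the longer diet and Rps16 one of 1.50, while for Mif deletion at 24 weeks Rps16 had 1.12 and Rpl32 had 1.29. Mean Rps16 at 24 weeks was 470 ± 258 CPM in Apoe-/-Mif-/- mice, or 348 ± 103 CPM without library 4. It was 217 ± 7.8 CPM in Apoe-/- mice.

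Mif deletion at 42 weeks left the members spread about 0. Log2 fold changes were above 0 for 49 members and below 0 for 29, with a median of 0.17 for the members and 0.09 for all tested genes, of which 51.8% were above 0. edgeR called 0 members, as it called 0.0% of all genes. At an unadjusted p under 0.05 it found 0 members, against 9.26% of genes higher and 7.99% lower. DESeq2 and both limma fits called 0 members, where DESeq2 called 902 of 10634 genes and the limma fits 0. With size factors in place of TMM scaling, the median of all genes was 0.28 and that of the members 0.61, with 64 members above 0. By library total alone the members' median was -0.015, with 37 above 0. The direction of the members at 42 weeks therefore depended on the scaling.

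The members with the smallest p at 42 weeks were not of a single direction. Rplp2, an acidic stalk protein like Rplp1, had 927, 1164, 359 and 616 CPM in Apoe-/-Mif-/- and 202, 334, 269 and 458 CPM in Apoe-/- libraries. Library 3 of the Apoe-/-Mif-/- group lay within the Apoe-/- range and the other 3 lay above it, with a log2 fold change of 1.28 ± 0.71 (SE; edgeR adjusted p = 0.344). Rplp1 had 2440, 4444, 1213 and 1482 CPM in Apoe-/-Mif-/- against 980, 1707, 1077 and 1655 CPM in Apoe-/- libraries, with overlapping groups and a log2 fold change of 0.82 (edgeR adjusted p = 0.444), which was 0.42 without library 2 of the Apoe-/-Mif-/- group. Rplp0, to which both bind in the stalk, had a log2 fold change of -0.21. Rps6, the substrate of the S6 kinases below mTORC1, had 174, 96.1, 176 and 39.6 CPM in Apoe-/-Mif-/- and 190, 384, 282 and 248 CPM in Apoe-/- libraries.

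All 4 Apoe-/-Mif-/- values of Rps6 were below all Apoe-/- values at 42 weeks, and its log2 fold change was -1.19 ± 0.83 (edgeR adjusted p = 0.46). Rps6 was the single member (1.28%) whose groups did not overlap in this comparison, where 1.03% of all genes were separated in the lower direction and 1.17% in the higher. A share near that of all genes is no result about the members. Rps2, which lies near the mRNA entry site, had a log2 fold change of 0.75 (edgeR adjusted p = 0.517).

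In Apoe-/-Mif-/- mice, 42 against 24 weeks gave 49 members above 0 and 29 below, with a median of 0.23 for the members and 0.12 for all tested genes, of which 52.9% were above 0. edgeR called 0 members and 0.122% of all genes. At an unadjusted p under 0.05 it found 0 members higher and 1 lower, Rpl7l1, against 7.45% and 5.63% of all genes. DESeq2 called Rpl7l1 alone among the members, where it called 562 of all 10634 genes. Both limma fits called 0 members and 0 genes. The median of the members was 0.66 without library 4 of the 24-week group. Under size factors it was 0.80, with the median of all genes at 0.54, and with no scaling beyond the library total it was -0.19, with all genes at -0.27. Levels of no member were separated between the durations, where 1.35% of all genes were separated higher and 3.03% lower. Cardiac muscle markers, 5 of 5 and none at 0, summed to 164 to 751 CPM at 42 weeks and 1041 to 3547 CPM at 24 weeks in these mice, and their part in the levels of the members was not tested. Behind Rpl7l1, the smallest p belonged to Rpl8, Rps2, Rpl34 and Rpl22, with log2 fold changes of 0.92, 0.88, 1.11 and 1.17 and edgeR adjusted p of 0.5, 0.532, 0.564 and 0.62. Without library 2 of the 42-week group Rpl8 had 0.47.

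Averaged over both durations, the genotype comparison had 73 members above 0 and 5 below, with a median of 0.48 beside -0.06 for all tested genes, of which 48.1% were above 0. edgeR called 0 members and 0.0% of all genes, and at an unadjusted p under 0.05 it found 1 member, Rplp1, against 5.08% of genes higher and 7.9% lower. Rplp1 had a log2 fold change of 0.86 ± 0.40 (SE), with an edgeR p of 0.0372 and an adjusted p of 0.35. The other leading members were Rps21, Rps12, Rpl41 and Rpl9, with log2 fold changes of 0.96, 0.91, 0.72 and 0.87 and edgeR adjusted p of 0.45 to 0.471. Rps21 had 0.56 and Rps12 had 0.55 without library 4 of the Apoe-/-Mif-/- mice at 24 weeks.

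The interaction asked whether the genotype effect differed between the durations, as the effect at 42 weeks minus that at 24 weeks. Its log2 value was below 0 for 66 members and above 0 for 12, with a median of -0.60 beside 0.26 for all tested genes, of which 54.0% were above 0. edgeR called 0 members and 0.686% of all genes, and 0 members had an unadjusted p under 0.05, against 9.36% of genes higher and 4.86% lower. DESeq2 and both limma fits called 0 members, where DESeq2 called 543 of 10634 genes and the limma fits 0. Rps18, at the head of the small subunit and with the pyrimidine run shown above, led the members with -1.77 ± 0.94 (edgeR adjusted p = 0.389). Its CPM were 774, 316, 504 and 839 in Apoe-/-Mif-/- and 240, 920, 772 and 1892 in Apoe-/- libraries at 42 weeks, and 443, 810, 903 and 1583 in Apoe-/-Mif-/- and 499, 449, 406 and 374 in Apoe-/- libraries at 24 weeks. Mean Rps18 was thus lower in Apoe-/-Mif-/- than in Apoe-/- mice at 42 weeks and higher at 24 weeks, with overlapping groups each time. Rpl15, Rpl17, Rpl7l1 and Rpl10a followed with -1.94, -1.84, -2.23 and -1.50 and edgeR adjusted p of 0.506 to 0.577. Without library 4 of the Apoe-/-Mif-/- mice at 24 weeks, the median of the members was -0.19, Rpl7l1 had -0.44 and Rpl10a had -0.59. Among Apoe-/- mice at 42 weeks, leaving out library 4 gave -1.16 for Rps18 and leaving out library 3 gave -1.06 for Rpl7l1.

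Some members are commonly used as references for other genes. Rplp0, Rpsa and Rps4x averaged 1546 ± 680, 2110 ± 727 and 498 ± 208 CPM in Apoe-/-Mif-/- mice at 42 weeks. They averaged 1788 ± 971, 1523 ± 149 and 395 ± 260 CPM in Apoe-/- mice at 42 weeks (SD, n = 4). At 24 weeks the values were 1527 ± 485, 1758 ± 958 and 437 ± 332 CPM in Apoe-/-Mif-/- mice, against 1258 ± 135, 1153 ± 273 and 236 ± 62.9 CPM in Apoe-/- mice. The Apoe-/- group at 24 weeks had the lowest mean of each of these genes. Without library 4, the Rpsa and Rps4x means of Apoe-/-Mif-/- mice at 24 weeks were 1341 ± 579 and 272 ± 46.5 CPM (SD, n = 3). In edgeR, Rplp0 had log2 fold changes of 0.28 for Mif deletion at 24 weeks and 0.51 for 42 against 24 weeks in Apoe-/- mice, with Rpsa at 0.61 and 0.40 and Rps4x at 0.89 and 0.75, none of which passed. The log2 fold changes for Mif deletion include library 4, and those without it are not given here.

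The paralogs ending in l or l1 together made up 0.846% of member counts. Rpl7l1, related to Rpl7, had 7.19, 36.2, 59.2 and 5.16 CPM in Apoe-/-Mif-/- and 12.7, 29.0, 128 and 20.2 CPM in Apoe-/- mice at 42 weeks. At 24 weeks it had 38.0, 144, 86.0 and 990 CPM in Apoe-/-Mif-/- and 49.5, 112, 104 and 208 CPM in Apoe-/- mice. Library 4 of the Apoe-/-Mif-/- mice at 24 weeks was far above every other library, and durations overlapped in both genotypes. For 42 against 24 weeks in Apoe-/-Mif-/- mice the log2 fold change of Rpl7l1 was -3.54 ± 1.21 (SE), with an edgeR p of 0.00579 and an adjusted p of 0.234. It was -1.72 without library 4, and DESeq2 gave an adjusted p of 0.0299 with it. Its canonical partner Rpl7 had a log2 fold change of -0.50 in the same comparison. Mean Rpl7 was 299.6 CPM at 42 weeks and 422.5 CPM at 24 weeks in these mice, or 322.8 CPM at 24 weeks without library 4.

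Rps4l, a paralog of Rps4x, was low and erratic, with 0.514, 1.39, 18.4 and 52.5 CPM in Apoe-/-Mif-/- and 4.22, 2.66, 1.04 and 2.09 CPM in Apoe-/- mice at 42 weeks. The highest and the lowest of these 8 values were both in the Apoe-/-Mif-/- group, and its log2 fold change of 2.92 ± 1.71 had an edgeR adjusted p of 0.37. It was 1.39 without library 4 of the Apoe-/-Mif-/- group. Rps27l, a target of the tumour suppressor Trp53 and relative of Rps27, averaged 328 ± 207 CPM in Apoe-/-Mif-/- and 160 ± 97.6 CPM in Apoe-/- mice at 42 weeks, and 168 ± 74.7 CPM against 138 ± 49.3 CPM at 24 weeks. The ranges of Rps27l overlapped between genotypes at both durations. Rpl22l1, related to Rpl22, averaged 18.8 ± 8.26 CPM in Apoe-/-Mif-/- and 20.5 ± 15.7 CPM in Apoe-/- mice at 42 weeks, and 16.1 ± 18.2 CPM against 4.67 ± 2.68 CPM at 24 weeks. Without library 4 of the Apoe-/-Mif-/- mice at 24 weeks, with 42.6 CPM, the Rpl22l1 mean was 7.25 ± 5.63 CPM (SD, n = 3). Sequence shared by these paralogs and their partners was not computed here, so whether reads were split between them is not known.

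**Figure D5:**
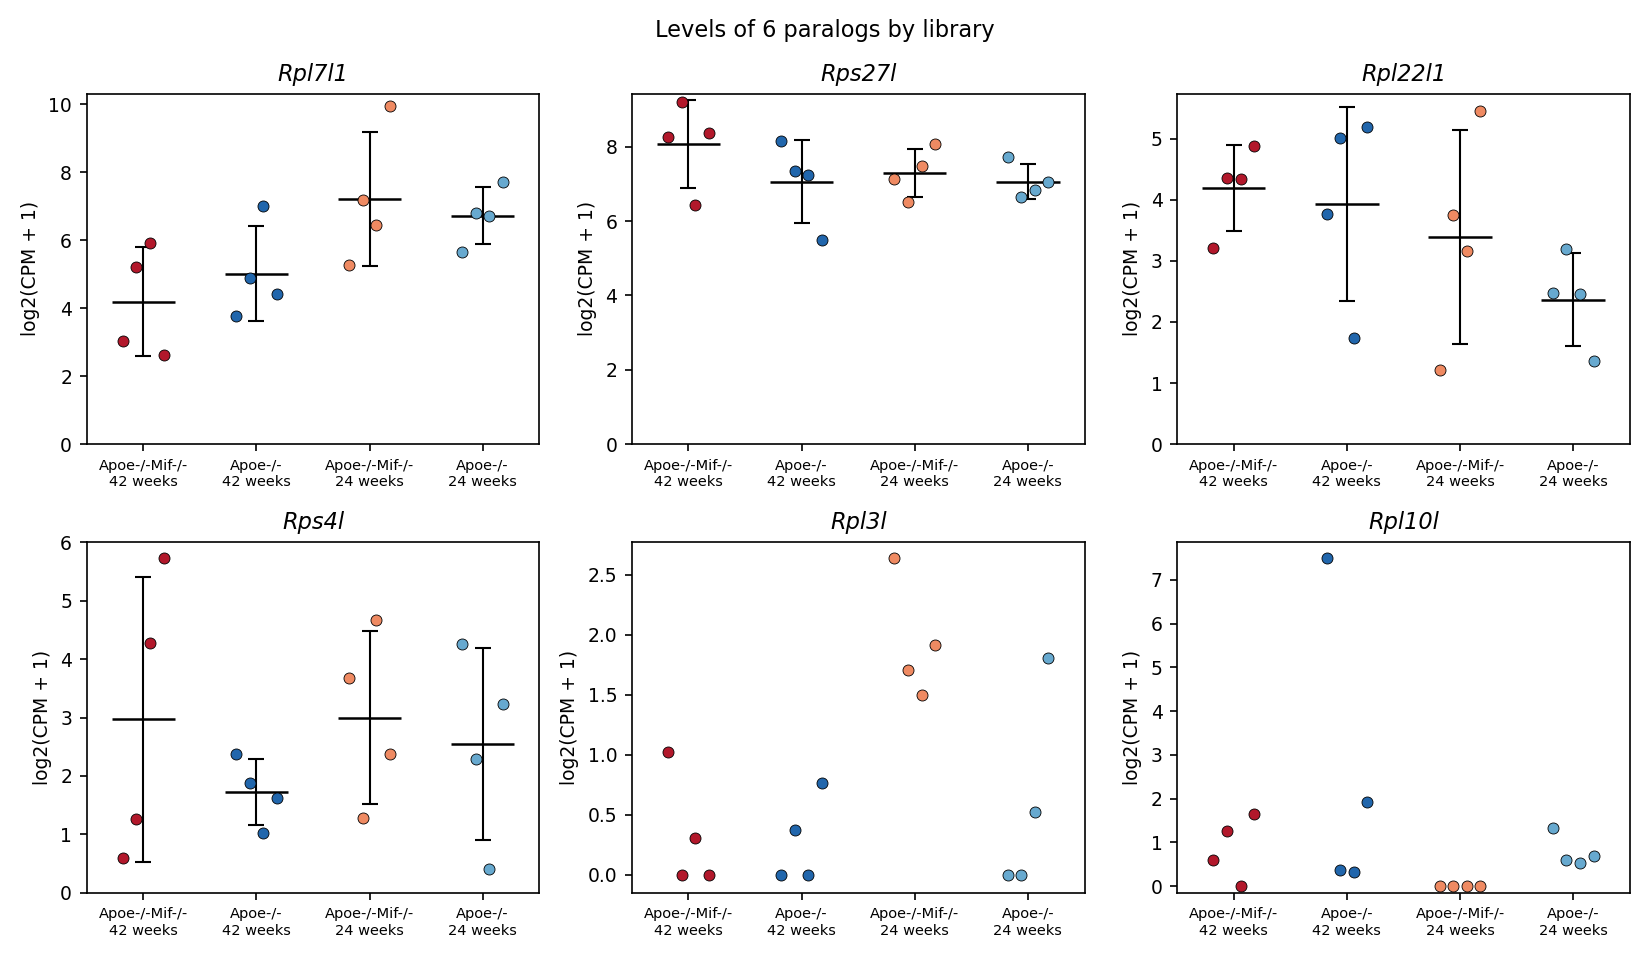
Levels of 6 paralogs by library as log2(CPM + 1). Points are libraries. Lines and bars give the group mean and 1 SD (n = 4) and are left out for Rpl3l and Rpl10l, which have libraries at 0. Rpl7l1 peaks in the fourth Apoe-/-Mif-/- library at 24 weeks, Rpl3l is above 0 in all 4 libraries of that group, and Rpl10l is high in the first library of Apoe-/- mice at 42 weeks.

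Rpl3l replaces Rpl3 in heart and skeletal muscle ribosomes, and it was too low to be tested. It had 2, 0, 1 and 0 counts in Apoe-/-Mif-/- and 0, 1, 0 and 1 counts in Apoe-/- mice at 42 weeks, and 8, 11, 9 and 6 counts in Apoe-/-Mif-/- and 0, 0, 4 and 8 counts in Apoe-/- mice at 24 weeks. All 4 Apoe-/-Mif-/- libraries at 24 weeks had Rpl3l reads, and these were the libraries with cardiac marker sums of 1041 CPM and more, while no other library passed 751 CPM. Library 4 of Apoe-/- mice at 24 weeks had 8 counts with a cardiac sum of 192 CPM. Library 1 of that group, with skeletal muscle markers at 5015 CPM, had 0 counts. The part of muscle tissue in the Rpl3l counts was not tested. Rpl10l, a testis gene, had 85 of its 110 counts in the first library of Apoe-/- mice at 42 weeks, the shallowest of all. Rpl39l likewise had 46 of its 47 counts in the third library of Apoe-/- mice at 24 weeks. Each of these rests on a single library or a few reads.

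Elongation factors and other mRNAs of the TOP class, 11 of 11 tested, had median log2 fold changes of 0.07 for Mif deletion at 24 weeks and 0.40 for 42 against 24 weeks in Apoe-/- mice, with 7 above 0 in each and none called. Eef1b2 had 1.01 for Mif deletion at 24 weeks and Eef1a1 had 0.64 for the longer diet in Apoe-/- mice, with edgeR adjusted p of 0.933 and 0.627.

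For Mif deletion at 24 weeks and for 42 against 24 weeks in Apoe-/- mice, other lists of the translation machinery had lower medians than the members. Initiation factors, 50 tested of 85, had medians of -0.0033 for Mif deletion at 24 weeks and -0.04 for 42 against 24 weeks in Apoe-/- mice, with 25 and 24 above 0. Ribosome biogenesis factors, 52 of 52, had medians of -0.07 and -0.81, with 24 and 17 above 0. Mitochondrial ribosomal proteins, 76 of 78, had -0.30 and -0.29, with 29 and 28 above 0. Regulators around mTORC1 and Larp1, 20 of 22, had -0.92 and -0.19, with 6 and 10 above 0. edgeR called no gene of these lists in any of the 6 comparisons, and all tested genes had medians of -0.18 and -0.12. The order differed elsewhere. For Mif deletion at 42 weeks the medians of the lists, in the order above, were 0.44, 0.50, 0.20 and -0.27, against 0.17 for the members. In the interaction they were 0.21, 0.77, 0.67 and 0.51, against -0.60 for the members. Myc, which drives transcription of ribosome genes, had a log2 fold change of -5.66 for the longer diet in Apoe-/- mice and Rragd, a GTPase that regulates mTORC1, 5.55 for Mif deletion at 24 weeks, with edgeR adjusted p of 0.322 and 0.454.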

How the data were processed

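Polyadenylated RNA from 16 artery lysates, 4 per group, was amplified by Smart-seq2. The authors deposited whole-number counts for each gene symbol. Reads were, per the submitters' processing notes, trimmed with cutadapt 1.18 and Trim Galore 0.6.4, examined with FastQC 0.11.5 and aligned with STAR 2.5.2b to GRCm39; the counting program and gene annotation are not given in the sources used here. The authors also deposited log2 variance-stabilised values for 9578 genes, used as an alternative input. Of 55359 rows, 1 blank row (at most 0.00257% of a library) and 2 reporter rows were left out.

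The quasi-likelihood test of edgeR 4.0.16 (R 4.3.3) was run on the counts after TMM scaling and filterByExpr (minimum count 10, total 15), which kept 10634 genes. A single fit held all 16 libraries and left 12 residual degrees of freedom. Calls needed a Benjamini-Hochberg adjusted p under 0.05 over all of them. limma 3.58.1 and DESeq2 1.42.0 were alternatives, as were other scalings, filters and each library left out in turn. Library totals ran from 378066 to 8649518 counts, so low members of the shallowest libraries are the least precise. Shares of counts have exact Clopper-Pearson 95% intervals. Replicate numbers are accession order and pair no mice.

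The members and lists were chosen with earlier results of these data known, so no p-value was computed over a list or a sum. The genes named are the 5 members with the smallest p in each comparison, the 3 most and least variable, the 3 most abundant per transcript length, the paralogs, and Rplp0, Rpsa, Rps4x and Rps6. The rule allowed the 2 genes with the smallest p of each other list and comparison; here 1 is named for each of 2 comparisons in the elongation and mTORC1 lists and none in the others. Members whose groups did not overlap, untested members and Rpl7 were named after their values were seen. The lists are translation factors, ribosome biogenesis, mitochondrial ribosomal proteins, mTORC1 regulators and cell type markers. B cell, T cell and thymocyte, brown adipocyte, smooth muscle, endothelial and erythroid markers overlapped in range between the groups of each comparison of genotype. Leaving out libraries 1 and 4 of Apoe-/- mice at 24 weeks together was an alternative chosen after seeing the data. Protein sequences were not used here, and some genes and lists are not reported here. The scripts were tested on simulated data.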

Additional observations from a re-analysis of the deposited data

Results flagged for a closer look

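A library was marked where its value lay far from the other 3 of its group, by the gap to the nearest of them as a part of the group's range. The check covered 140 groups of 4 (31 members and 4 summed measures), and 10 values passed, where chance marks about 1 group in 20.

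Of these, 6 were in library 4 of the Apoe-/-Mif-/- mice at 24 weeks. It had 1452 CPM of Rps20 with the others of its group at 278 to 343, 1045 CPM of Rps21 with the others at 209 to 298, and 932 CPM of Rps4x with the others at 228 to 321. It also had 827 CPM of Rpl10a with the others at 198 to 260, 636 CPM of Rpl7a with the others at 270 to 322, and 990 CPM of Rpl7l1 with the others at 38.0 to 144.

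In Apoe-/-Mif-/- mice at 42 weeks, library 1 had 708 CPM of Rpl10a with the others at 176 to 266, and 1173 CPM of Rpl9 with the others at 399 to 515. Library 2 of that group had 446 CPM of Rpl7a with the others at 203 to 216. In Apoe-/- mice at 42 weeks, library 3 had 128 CPM of Rpl7l1 with the others at 12.7 to 29.0. Each is given as a value only.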

How the results depend on the processing

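The 5 members with the smallest p in each comparison gave 30 gene comparisons and 769 values under other settings, none with a reversed direction. They were picked by p in the same data, which makes a reversal unlikely. Other named members and comparisons were not covered. Of these values 1 passed the threshold, Rpl7l1 for 42 against 24 weeks in Apoe-/-Mif-/- mice, the 1 member that DESeq2 called. The TMM-scaled share, chosen after seeing the data, averaged 5.02% in Apoe-/-Mif-/- and 4.43% in Apoe-/- mice at 42 weeks and 2.60% in Apoe-/- mice at 24 weeks, and the difference between durations was then 1.82 points in Apoe-/- and, with its sign turned, 0.791 in Apoe-/-Mif-/- mice. Without the 10 most abundant other genes, the share was 4.40% in Apoe-/- mice at 42 weeks and 3.20% at 24 weeks. Leaving out each library in turn, the share difference ran from 1.27 to 1.88 points for Mif deletion at 24 weeks, -0.436 to 0.272 at 42 weeks, 0.986 to 1.29 for duration in Apoe-/- and -0.902 to -0.193 in Apoe-/-Mif-/- mice.

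The members' median log2 fold change for Mif deletion at 42 weeks was 0.61 under size factors and 0.61 in DESeq2. For duration in Apoe-/-Mif-/- mice it was 0.80, 0.80 and, by library total only, -0.19. The median of all genes in that comparison was 0.12 under TMM, 0.54 under size factors and -0.27 by library total. With each library left out the members' median ran from 0.41 to 0.93 (Mif deletion, 24 weeks), 0.07 to 0.41 (Mif deletion, 42 weeks), 0.61 to 1.05 (duration, Apoe-/-), -0.018 to 0.66 (duration, Apoe-/-Mif-/-), 0.33 to 0.64 (averaged) and -0.84 to -0.19 (interaction). Genes called over all genes moved far more. For Mif deletion at 24 weeks they numbered 117 without a filter, 1 with at least 20 counts in 4 libraries, 210 in DESeq2, and 0 under size factors, in both limma fits and in the 8 libraries alone. At 42 weeks they numbered 150 without a filter, 902 in DESeq2 and 25 in the 8 libraries alone. Duration gave 18 and 391 in Apoe-/- mice without a filter and in DESeq2. In Apoe-/-Mif-/- mice it gave 22 under size factors, 4 by library total, 419 without a filter, 562 in DESeq2 and 0 in both limma fits. The averaged effect gave 141 without a filter and 392 in DESeq2, and the interaction 18 by library total, 426 without a filter, 543 in DESeq2 and 0 in both limma fits. Leaving out libraries gave 0 to 21, 0 to 1, 0 to 36, 0 to 1 and 0 to 124 genes for Mif deletion at 24 and 42 weeks, duration in Apoe-/-Mif-/- mice, the averaged effect and the interaction. Without libraries 1 and 4 of Apoe-/- mice at 24 weeks, chosen after seeing the data, 0 genes were called for Mif deletion at 24 weeks, 53 for duration in Apoe-/-Mif-/- mice and 0 for the interaction, and the ratio of large to small subunit counts differed by -0.19 between durations in Apoe-/- mice. The cause of these changes was not tested. Members called stayed at 0 apart from that DESeq2 call. No paired analysis was possible because the labels give the groups no shared replicate numbers.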
